A study of Mus musculus with 14 samples.

Results

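The CC chemokines of visceral fat were followed as 10 genes, Ccl2, Ccl3, Ccl4, Ccl5, Ccl6, Ccl7, Ccl8, Ccl9, Ccl11 and Ccl12, taken by symbol from a table of 23282 genes, and each had 1 entry there. The table came from QuantSeq 3′-mRNA sequencing of epididymal white adipose tissue (eWAT, the fat pad beside the epididymis of male mice) of 14 male Wild type C57BL/6J mice, with 1 library per mouse. The control group received a normal diet (9 libraries) and the WD group a Western diet (5 libraries), both for 20 weeks, and the mice were 4 to 5 weeks old when feeding began (the sources differ). The labels give batch 1 for control replicates 1 to 4 and for WD replicates 1 to 5, and batch 2 for control replicates 5 to 9, without saying what a batch was. Every WD library therefore belongs to batch 1, and diet can be separated from batch only against the 4 batch 1 controls.

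CC chemokines are small secreted proteins with a pair of adjacent cysteines near the start of the mature chain. They bind G protein-coupled receptors on leukocytes and guide those cells along a gradient into a tissue. In fat, macrophages are both a source of several of these proteins and among the cells they attract, and the monocytes that follow Ccl2 through the receptor Ccr2 are the best known example in obesity. The 10 genes fall into groups by the cells they attract. Ccl6 and Ccl9 are macrophage products that act on Ccr1. Ccl2, Ccl7, Ccl8 and Ccl12 are monocyte chemoattractant proteins. Ccl11 is eotaxin, which attracts eosinophils through Ccr3. Ccl3, Ccl4 and Ccl5 attract macrophages and T cells.

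All 10 genes lie on chromosome 11 of the mouse genome (GRCm38, the release named mm10 in the submitters' notes) in 2 clusters that are 1408979 bases apart. Ccl2, Ccl7, Ccl11, Ccl12 and Ccl8 stand in this order on the forward strand between positions 82035577 and 82116799, a stretch of 81.2 kb. Ccl5, Ccl9, Ccl6 and Ccl3 on the reverse strand and Ccl4 on the forward strand follow between 83525779 and 83664683, a stretch of 139 kb. Ccl9 (83572917 to 83578636) and Ccl6 (83587886 to 83593087), the most abundant members, are direct neighbours with 9249 bases between them. Because these neighbours varied most alike among the 3 most abundant members (Pearson r = 0.902 over the 14 libraries), the 250 bases before their start sites are shown, 5′ to 3′ on the strand of the gene, from RefSeq (GRCm38.p6). Both lie on the reverse strand, Ccl9 at chr11:83578637-83578886 and Ccl6 at chr11:83593088-83593337. Capitals mark matches to the motifs listed after the sequences.
Ccl9: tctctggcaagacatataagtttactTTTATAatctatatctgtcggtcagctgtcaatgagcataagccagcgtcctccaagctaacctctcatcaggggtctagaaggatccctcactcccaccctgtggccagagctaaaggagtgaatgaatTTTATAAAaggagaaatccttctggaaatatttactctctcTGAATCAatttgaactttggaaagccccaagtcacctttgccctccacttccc
Ccl6: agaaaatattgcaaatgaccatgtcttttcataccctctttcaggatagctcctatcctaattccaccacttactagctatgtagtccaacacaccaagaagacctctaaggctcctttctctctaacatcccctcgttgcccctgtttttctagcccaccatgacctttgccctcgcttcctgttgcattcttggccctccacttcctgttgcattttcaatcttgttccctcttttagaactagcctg

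The RefSeq windows run from 250 bases before to 50 bases after a start site, and 5 of the 10 members (Ccl3, Ccl6, Ccl8, Ccl9 and Ccl12) were matched. Each window was searched on both strands for 4 motifs. The TATA box letters TATAAA were in 3 of the 5 windows, at 32 bases before the start in Ccl8, at 31 in Ccl12 and at 92 in Ccl9, against 13.6% of all 32851 windows. The AP-1 letters TGANTCA were in 1 window, that of Ccl9 at 53 bases before the start (7.81% of all windows). The PU.1 core letters GAGGAA were in 3 windows (28.3% of all), those of Ccl3, Ccl8 and Ccl12, and the NF-kB letters GGGA and TTTCC with any 1 base between them were in 0 of the 5 (0.411% of all). The overlapping capitals in Ccl9 are TATAAA read on both strands, and the window of Ccl6 held none of the 4. Such matches describe letters only.

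Placed against each other without gaps, the windows of Ccl9 and Ccl6 were identical at 36.5% of 266 bases, the highest share of the 10 pairs of member windows (29.4% to 36.5%). A nearly identical stretch in that placement is shown because it stands at a different place in each, and capitals mark identical bases. In Ccl9 it lies 10 to 31 bases after the annotated start (chr11:83578606-83578627), and in Ccl6 it lies 25 to 4 bases before it (chr11:83593091-83593112).
Ccl9: TGTTCCCTCTcTTAGAACTAGC
Ccl6: TGTTCCCTCTtTTAGAACTAGC
Of these 22 bases, 21 were identical. The last run of identical bases, TTAGAACTAGC, was found on either strand in 4 of the 32851 windows. At another placement the same pair of windows shared a run of 13 identical bases, against at most 11 in the other pairs.

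Total counts per library lay between 10278970 and 13712254, and 3 counts, used as the limit of detection, equalled a CPM (counts scaled to a common library size with TMM factors over all 14 libraries) of 0.212 to 0.324. Control replicate 1 carried 3.46% of its counts on 10 genes of the epididymis against at most 0.00169% elsewhere, and its summed level of 6 adipocyte genes was 4507 CPM, the lowest of all libraries. Control replicate 4 had 7999 genes with a count, whereas the others had 10903 to 13780. Both are batch 1 controls, and batch 1 values of members, ratios and macrophage genes that rest on them are also given without both. All 6 adipocyte genes were detected in each group and their sum was above 0 in every library (20857 to 45178 CPM summed in the libraries of WD and of the batch 2 controls), as the labelled tissue would have. QuantSeq reads come from the 3′ end of a transcript, so counts do not grow with gene length and the CPM of different members can be set side by side. Several genes can share a read because multiple alignments were counted, but no stretch of 75 bases, the length of a read, in any member's transcripts occurred in those of another gene. Only exact matches were searched, so shared reads that align with differences are not excluded. Of stretches of 25 bases, 5.89% in Ccl9, 2.57% in Ccl5, 1.70% in Ccl11 and 1.41% in Ccl6 occurred in other genes. The remaining members had no such stretch. Ccl9 was 1 of the 2 genes that shared stretches of 25 bases with Ccl6. Ccl2 overlaps Gm17268 and Ccl6 overlaps E230016K23Rik on the opposite strand, and strand use in counting was not stated. E230016K23Rik had 0 to 28 counts per library, and Gm17268 was not analysed here.

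The level of the members spanned more than 3 orders of magnitude. Ccl6 had the highest mean level over the 14 libraries, 463 ± 229 CPM (SD), and exceeded 98.8% of the genes with a count. Ccl9 followed with 200 ± 135 CPM and Ccl8 with 26.4 ± 21.4 CPM. Ccl6 exceeded Ccl9 in 14 of 14 libraries, Ccl9 exceeded Ccl8 in 14, and Ccl8 exceeded Ccl5 in 13. The next genes were within their spread of each other. Ccl5 (9.05 ± 9.58 CPM), Ccl11 (6.63 ± 6.60), Ccl2 (5.86 ± 5.99) and Ccl7 (4.68 ± 7.97) had no stable order, as Ccl5 exceeded Ccl11 in 6 libraries, Ccl11 exceeded Ccl2 in 7 and Ccl2 exceeded Ccl7 in 10. Ccl12 (1.23 ± 1.59 CPM), Ccl3 (0.367 ± 0.740) and Ccl4 (0.224 ± 0.478) were the lowest.

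**Figure D1:**
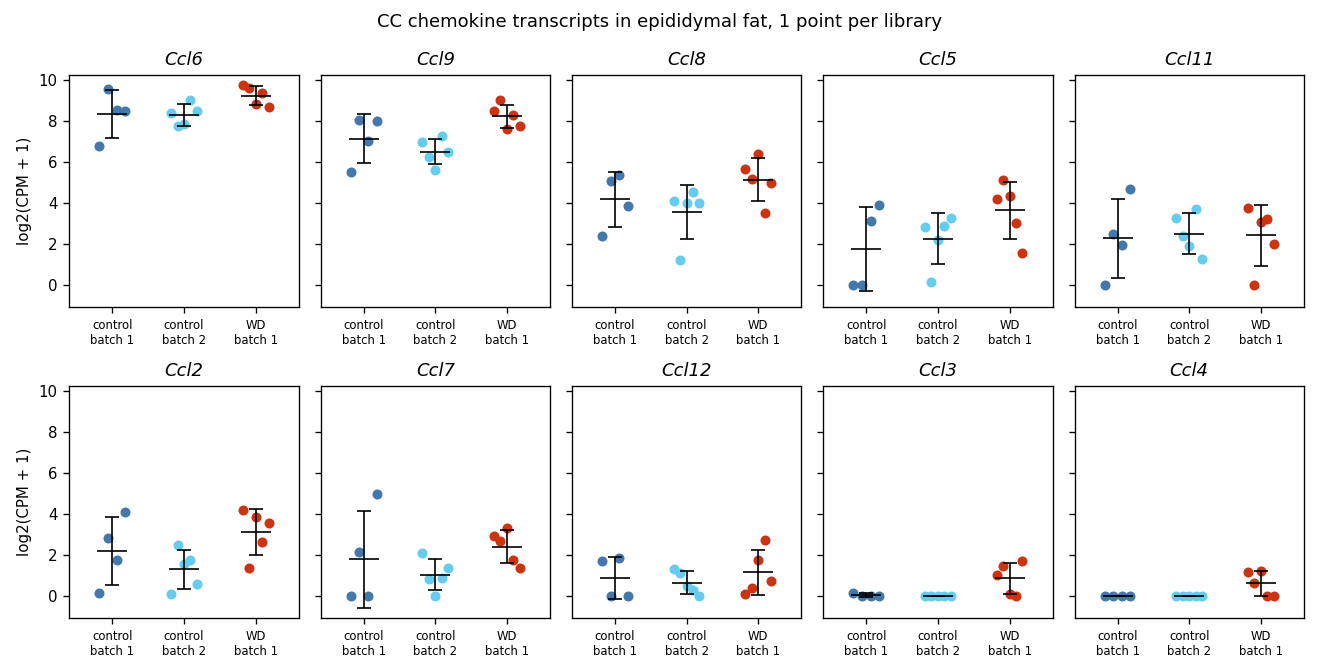
Level of the 10 CC chemokines on the log2(CPM + 1) scale, 1 point per library, in batch 1 controls (n = 4), batch 2 controls (n = 5) and WD (n = 5). Bars give the mean ± SD; Ccl6 and Ccl9 stand far above the rest, and Ccl4 has points above 0 in WD libraries alone.

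Ccl6 and Ccl9 together made up 83.2% to 96.2% of the counts of the 10 genes in each library. The share of Ccl6 was 61.2% ± 4.04 in WD (n = 5), 64.1% ± 8.88 in batch 1 controls (n = 4) and 72.7% ± 3.43 in batch 2 controls (n = 5). The 8 other members took the most in WD replicate 3 (16.8%) and control replicate 4 (13.7%), and the least in WD replicate 4 (3.80%). The summed level of all 10 was 1043 ± 312 CPM in WD, 629 ± 377 in batch 1 controls and 461 ± 173 in batch 2 controls, which is mainly the level of Ccl6 and Ccl9.

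**Figure D2:**
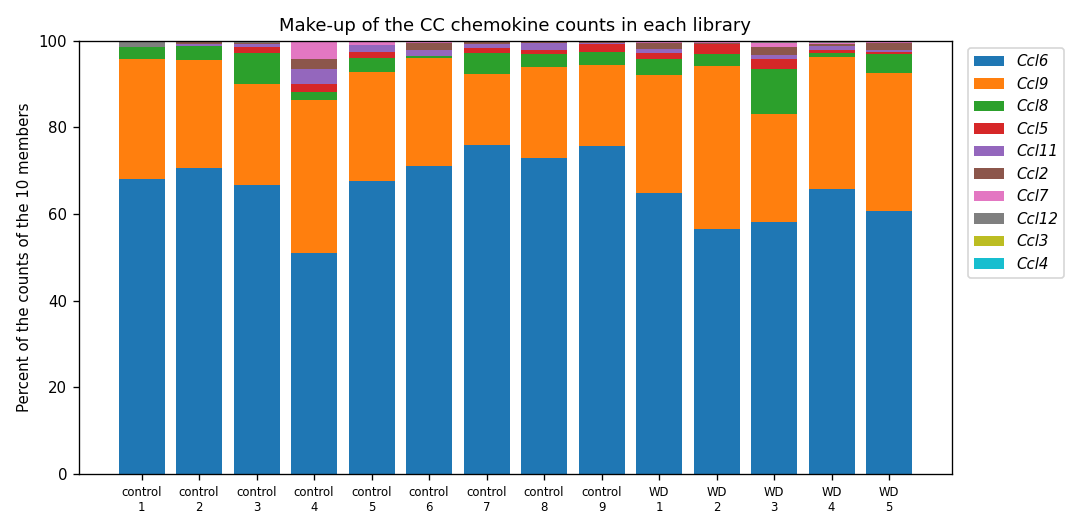
Share of each of the 10 CC chemokines in their summed counts, in percent, with 1 bar per library. Ccl6 and Ccl9 fill 83.2% to 96.2% of every bar, and control replicate 4 and WD replicate 3 have the widest remainder.

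The first comparison asked which members differed by diet within batch 1. Low counts kept Ccl3 and Ccl4 out of the test. By the quasi-likelihood test of edgeR, none of the other 8 members was higher or lower in WD with an unadjusted p below 0.05, while 3.35% of the 12157 genes tested were higher and 1.82% were lower. No gene of the table (0%) had an FDR (Benjamini-Hochberg over all genes tested) under 0.05 in edgeR, with 628 genes at an unadjusted p under 0.05 and 114 genes called by DESeq2, none of them a member. Of the 8 log2 fold changes, 6 were positive (51.8% of all genes tested were), and their median was 0.66 against 0.03 for all genes. Exact permutation tests placed 0 members higher at an unadjusted p under 0.05 (7.81% of all genes). The same test against all 9 controls placed 2 members, Ccl6 and Ccl9, higher at an unadjusted p under 0.05 (4.48% of 12653 genes) and 0 at an FDR under 0.05 (0.530% in either direction). DESeq2 also placed 2 there and 0 by FDR, and exact permutation tests placed the same 2 (8.09% of genes). In this wider comparison, diet was in part mixed with batch, and with batch as a covariate 0 members had an unadjusted p under 0.05. The comparisons of WD with batch 1 controls, with batch 2 controls and with all controls share the WD libraries, so their values stand side by side and do not support each other. Ccl8 and Ccl9 were moreover selected by the study as raised both in eWAT sequencing and in a plasma antibody array. Their direction in these libraries is therefore not independent evidence. The study also reported more of both proteins in eWAT by western blot and in plasma by ELISA, which were not used here.

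Ccl9, a chemokine made by macrophages and other myeloid cells, was the member with the clearest difference. It had 5109, 4848, 2705, 3956 and 2593 counts in WD replicates 1 to 5. In batch 1 controls it had 416, 3199, 1575 and 3502 counts, and in batch 2 controls 1778, 792, 655, 1991 and 886 counts. In CPM, WD libraries ran from 200 to 520, batch 1 controls from 44.9 to 267 and batch 2 controls from 49.0 to 152. Every WD library was above every batch 2 control, as 4.99% of the 12070 genes tested there were, while control replicates 2 and 4 of batch 1 lay within the WD range. In batch 1, the mean was 322 ± 129 CPM in WD (n = 5) and 174 ± 106 CPM in controls (n = 4), with an edgeR log2 fold change of 0.88 (SE 0.48, 95% interval -0.06 to 1.82, unadjusted p = 0.0887, FDR = 1.00). The exact two-sided permutation test of the mean log2(CPM + 1) gave p = 0.103, where the smallest p that 5 against 4 libraries allow is 0.00794. Against all 9 controls (132 ± 81.5 CPM), the edgeR log2 fold change was 1.27 (SE 0.39, unadjusted p = 0.00421, FDR = 0.229). The batch covariate brought it to 0.86 (edgeR FDR = 0.650). Against all controls without control replicates 1 and 4, it was 1.33 and passed (edgeR FDR = 0.0221). It also passed there without control replicate 4 alone (1.45, edgeR FDR = 0.0488). Of the 7 controls left without both, 5 belong to batch 2, so diet was mixed further with batch. Within batch 1, leaving out both gave 0.69 and did not pass (edgeR FDR = 0.679).

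Ccl6, the neighbour of Ccl9 and also a myeloid product, had 864, 780, 467, 674 and 410 CPM in WD replicates 1 to 5. In batch 1 controls it had 110, 758, 375 and 367 CPM, and in batch 2 controls 337, 216, 230, 528 and 360 CPM. All 3 groups overlapped, and control replicate 1 was the lowest library of all. In batch 1, the mean of 639 ± 196 CPM in WD (n = 5) exceeded that of 403 ± 267 CPM in controls (n = 4) by less than the spread, with an edgeR log2 fold change of 0.66 (SE 0.47, 95% interval -0.25 to 1.58, unadjusted p = 0.179, FDR = 1.00). Against all controls (365 ± 190 CPM), it was 0.79 (edgeR SE 0.34, unadjusted p = 0.0315, FDR = 0.542). Left out together, control replicates 1 and 4 took the batch 1 value to 0.17 for Ccl6 and to 0.69 for Ccl9. Without control replicate 2, Ccl6 had an unadjusted p under 0.05 in batch 1.

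Against the batch 2 controls, 4 of the 7 members that passed the filter (all but Ccl3, Ccl4 and Ccl12) were higher in WD at an unadjusted p under 0.05 in edgeR, where 9.83% of the 12070 genes were. Of these, 2 had an FDR under 0.05 (3.93% of all genes were higher at that level). Ccl9 rose by 1.70 on the log2 scale (edgeR SE 0.31, FDR = 0.00272, 98.1 ± 40.9 CPM in controls) and Ccl6 by 0.92 (edgeR SE 0.27, FDR = 0.0485, 334 ± 125 CPM). Exact permutation tests placed 4 members, Ccl2, Ccl6, Ccl7 and Ccl9, higher at an unadjusted p under 0.05 (10.7% of genes). Ccl9 had an exact permutation p = 0.00794, the smallest that 5 against 5 libraries allow, and 0.0903 after adjustment over all genes tested. Ccl6 had an exact permutation p = 0.0238, adjusted 0.158. The FDR call of Ccl6 was lost when any 1 of control replicates 5, 6, 7 and 9 or of WD replicates 1, 2 and 4 was left out, and with library totals in place of TMM factors (edgeR FDR = 0.0516). Diet and batch cannot be told apart in this comparison.

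The controls of the 2 batches received the same diet, and the members were compared between them by the same test. All 8 members tested had negative log2 fold changes in batch 2, while 49.9% of all genes had positive ones. The median was -0.78 against -0.00 for all genes, and 0 of the 8 were lower at an unadjusted p under 0.05 in edgeR, where 3.54% of 12106 genes were. DESeq2 gave 0 as well, exact permutation tests gave 0 (3.04% of genes), and no gene (0%) had an edgeR FDR under 0.05. Ccl9 had a log2 fold change of -0.84 (edgeR SE 0.47, FDR = 0.788) and Ccl6 of -0.28 (edgeR SE 0.46, FDR = 0.979). Without control replicates 1 and 4, which leaves 2 batch 1 controls, Ccl6, Ccl8 and Ccl9 were lower at an unadjusted p under 0.05 in edgeR (log2 fold changes of -0.76, -1.40 and -1.02), as 5.12% of the 13367 genes then tested were, and none of the 3 had an FDR under 0.05. Without control replicate 1 alone it was 1 member, Ccl9. The negative sign of all 8 members was not kept without control replicates 1 and 4, where Ccl5 was at 0.35 and Ccl11 at 0.63. For Ccl9, the fold change between batches on the same diet was similar in size to that between diets within batch 1.

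**Figure D3:**
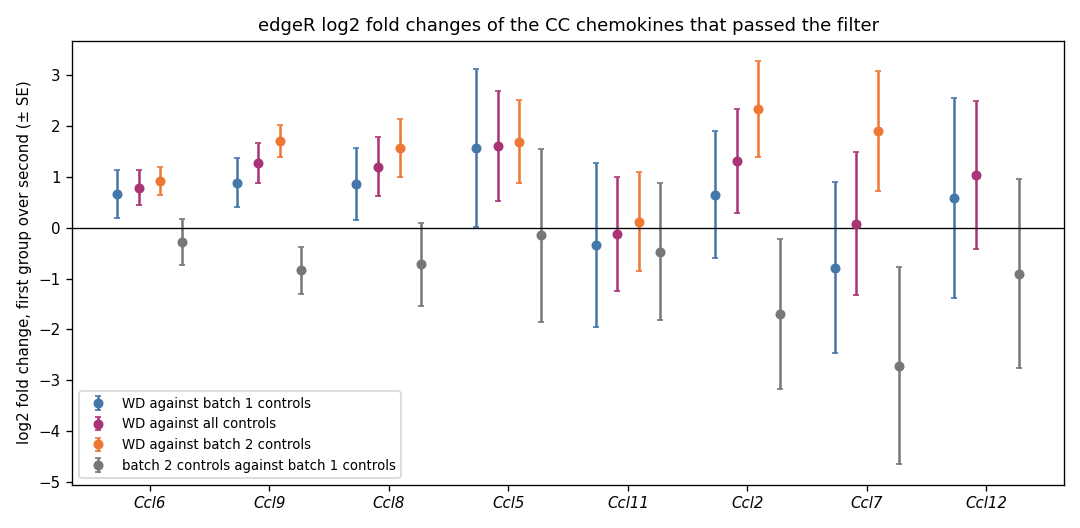
Log2 fold changes ± SE (edgeR) of the 8 members that passed the filter in at least 1 comparison, first group over second, for WD against batch 1, all and batch 2 controls and for batch 2 against batch 1 controls. Ccl6 and Ccl9 have the narrowest errors, and all 8 grey values, batch 2 against batch 1 controls, are below 0.

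Among the monocyte chemoattractant proteins, Ccl8 was the most abundant. It had 50.7, 35.4, 82.2, 10.4 and 30.2 CPM in WD replicates 1 to 5, against 4.32, 32.8, 41.0 and 13.4 CPM in batch 1 controls and 16.1, 1.33, 14.9, 22.4 and 14.9 CPM in batch 2 controls. WD replicates 1 and 3 were above all other libraries, and WD replicate 4 was below 7 of the 9 controls. The means in batch 1 were 41.8 ± 26.8 and 22.9 ± 16.9 CPM, an edgeR log2 fold change of 0.86 (SE 0.70, unadjusted p = 0.240, FDR = 1.00), which became 0.18 without control replicates 1 and 4. Against all controls it was 1.20 (edgeR SE 0.58, unadjusted p = 0.0533, FDR = 0.661), and against batch 2 controls 1.57 (edgeR SE 0.57, unadjusted p = 0.0143, FDR = 0.135).

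Ccl2, the main ligand of Ccr2, had 246, 15, 178, 65 and 130 counts in WD, 1, 73, 29 and 219 counts in batch 1 controls and 1, 48, 26, 31 and 5 counts in batch 2 controls. A batch 1 control, replicate 4, thus had more Ccl2 than 4 of the 5 WD libraries. The means were 9.63 ± 6.29 CPM in WD, 6.13 ± 6.96 in batch 1 controls and 1.89 ± 1.78 in batch 2 controls. The edgeR log2 fold change of WD was 0.65 within batch 1 (SE 1.25, unadjusted p = 0.614) and 2.33 against batch 2 controls (SE 0.95, unadjusted p = 0.0262, FDR = 0.194). The batch 1 value rested on single libraries. It was 1.71 without control replicate 4, 0.24 without control replicate 1, 0.35 without control replicate 3, 0.29 without WD replicate 1 and 1.18 without control replicates 1 and 4 (edgeR FDR = 0.881), and 1.62 with limma-voom.

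Ccl7, another Ccr2 ligand, had 92, 50, 121, 30 and 19 counts in WD, 0, 41, 0 and 424 in batch 1 controls and 47, 8, 0, 11 and 16 in batch 2 controls. Control replicate 4 alone held more Ccl7 than all WD libraries together. Its edgeR log2 fold change in batch 1 was -0.79 (SE 1.68, unadjusted p = 0.648, FDR = 1.00), 2.08 without that library (FDR = 0.849) and 1.53 without control replicates 1 and 4. Ccl12, also a Ccr2 ligand, had 1, 3, 32, 72 and 8 counts in WD, 21, 0, 31 and 0 in batch 1 controls and 21, 12, 5, 3 and 0 in batch 2 controls. Its batch 1 log2 fold change was 0.58 (edgeR SE 1.96, unadjusted p = 0.771) and 0.50 without control replicates 1 and 4, and at 1.23 CPM on average, no difference was detectable at this depth and spread.

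Ccl11 showed no difference by diet beyond its spread. It had 181, 0, 102, 106 and 36 counts in WD, 0, 56, 34 and 339 in batch 1 controls and 121, 45, 36, 158 and 14 in batch 2 controls, so the groups overlapped throughout. The edgeR log2 fold change was -0.34 in batch 1 (SE 1.61, 95% interval -3.50 to 2.82, unadjusted p = 0.836), 1.32 without control replicate 4, 0.76 without control replicates 1 and 4, and 0.12 against batch 2 controls (SE 0.97, 95% interval -1.78 to 2.03). These intervals are wide enough to hold large differences in either direction. Of 4 eosinophil genes, Siglecf, Epx and Prg2 had 0 counts in all WD libraries and batch 1 controls, and the summed level of all 4 was at most 11.6 CPM in any library.

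Ccl3, Ccl4 and Ccl5 were low. Ccl5, which T cells and macrophages release, had 248, 320, 264, 89 and 23 counts in WD, 0, 0, 93 and 193 in batch 1 controls and 85, 1, 49, 82 and 86 in batch 2 controls. WD replicates 1 to 3 were above every control. The batch 1 means were 16.1 ± 12.5 and 5.44 ± 6.78 CPM, with an edgeR log2 fold change of 1.56 (SE 1.55, 95% interval -1.47 to 4.59, unadjusted p = 0.332, FDR = 1.00). It was 2.61 without control replicate 4, the highest with 1 library left out, 2.05 without control replicates 1 and 4 (edgeR FDR = 0.744), 3.89 with limma-voom and 4.50 with the replicate number as a block. Against batch 2 controls it was 1.69 (edgeR SE 0.82, unadjusted p = 0.0559, FDR = 0.300). The summed level of 7 T and NK cell genes moved within low values, 0 to 25.3 CPM in WD, 2.75 to 12.8 in batch 1 controls and 0.191 to 5.09 in batch 2 controls, and its part in the level of Ccl5 was not tested.

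Ccl3 and Ccl4, the macrophage inflammatory proteins 1-alpha and 1-beta, were near the detection limit and failed the filter in all 4 comparisons. Ccl3 had 14, 16, 1, 0 and 27 counts in WD and a single count, in control replicate 1, among all 9 controls. Pooled over libraries, 58 counts against 1 gave a ratio of 102 (95% counting interval 17.6 to 4088), and of 44.2 against batch 1 controls alone (7.63 to 1778). Ccl4 had 18, 5, 18, 0 and 0 counts in WD and 0 in every control. Its pooled level of 41 counts (0.665 CPM) was at least 24-fold higher than in all controls and at least 10.4-fold higher than in batch 1 controls, taking 3 counts over the control group as the limit of detection. That limit was 0.0277 CPM over all controls and 0.0638 CPM over batch 1 controls. It lies below the limit of 3 counts in a single library. Because counts were pooled, these bounds and intervals leave out the spread between libraries and cover counting error of reads only. The sources mention no molecular identifiers, so reads copied from the same molecule cannot be told apart. Across libraries, the exact two-sided permutation test with no filter gave p = 0.00949 for Ccl3 and p = 0.0275 for Ccl4 against all controls (adjusted over all genes, 0.263 and 0.408), and p = 0.119 and p = 0.167 in batch 1. Both genes were thus detected mainly in WD libraries, with 3 WD libraries above all controls for each, and neither difference passed the adjustment.

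The receptors and other ligands of the family were taken from lists of 14 and 11 genes. In batch 1, 8 of the receptors passed the filter, and 2 of them, Ccrl2 and Ackr2, a pair of atypical receptors that do not signal as classical chemokine receptors do, had an unadjusted p under 0.05 in edgeR, both higher in WD. Since both had 0 counts in all batch 1 controls and passed the filter through WD libraries alone, nothing is read from this count, and their levels are given as a description. Ccrl2 had 4.32 ± 2.55 CPM in WD and 1.51 ± 1.77 CPM in batch 2 controls. Ackr2 had 3.35 ± 1.93 CPM in WD, but it had 3.16 ± 1.38 CPM in batch 2 controls, where every library was above every batch 1 control (4.13% of genes were). None of the other ligands tested (5 in batch 1, 6 against all or batch 2 controls) had an unadjusted p under 0.05 by diet in edgeR. The highest of them, Ccl27a, a skin-type chemokine, had 78.1 ± 43.4 CPM in WD, 83.2 ± 26.8 in batch 1 controls and 73.0 ± 16.6 in batch 2 controls. Ccl21a, a lymphoid homing chemokine, had 9.33 ± 6.77, 28.9 ± 11.4 and 9.39 ± 8.39 CPM in these groups, and the exact permutation test of WD against batch 1 controls gave p = 0.0397 (0.479 after adjustment over all genes) where edgeR gave an unadjusted p = 0.145.

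The summed level of 9 macrophage genes was 1418 to 1935 CPM in WD, 246 to 1487 in batch 1 controls and 486 to 1003 in batch 2 controls, and none of the 9 was at 0 in any group. In batch 1, 4 of the 9 were higher in WD at an unadjusted p under 0.05 in edgeR (Adgre1, Csf1r, Itgax and Lyz2), where 3.35% of all genes were, and 1 was lower (Lyve1, a marker of resident macrophages), where 1.82% were, and the 4 others did not pass. Without control replicates 1 and 4 it was 6 higher (6.01% of genes) and 2 lower (3.41%). Adgre1, which encodes the F4/80 antigen of macrophages, had 277 ± 80.2, 71.7 ± 66.8 and 42.1 ± 8.55 CPM, an edgeR log2 fold change of 1.94 in batch 1 (SE 0.55, FDR = 0.478), 2.30 against all controls (SE 0.39, FDR = 0.00973) and 2.70 against batch 2 controls (SE 0.24, FDR = 7.11e-06). In batch 1, the edgeR log2 fold changes of the other macrophage genes named by rule were 2.54 for Itgax (FDR = 0.434), 1.72 for Csf1r (FDR = 0.539) and 1.14 for Cd68 (FDR = 1.00). Left out together, control replicates 1 and 4 brought an FDR under 0.05 in batch 1 for Adgre1 (2.42, edgeR FDR = 0.0117), Itgax (3.33, edgeR FDR = 0.00483) and Csf1r (2.09, edgeR FDR = 0.0207), but not for Cd68 (1.97, edgeR FDR = 0.166). In batch 1 with all libraries, the edgeR log2 fold changes of the adipocyte hormone Adipoq and of the stromal marker Pdgfra were -0.15 and -0.47 (FDR = 1.00 for both). Without control replicates 1 and 4 they were -0.58 and -0.41 (edgeR FDR = 0.574 and 0.937). Against all controls, Adipoq was at -0.98 (edgeR FDR = 0.646), and at -1.21 without control replicates 1 and 4 (edgeR FDR = 0.00239). Adipoq was at -1.40 against batch 2 controls (edgeR FDR = 0.000306). It also differed by 1.23 between batch 2 and batch 1 controls on the same diet (edgeR FDR = 0.722). Between these controls, 2 of the 9 macrophage genes (Cd68 and Trem2) were lower in batch 2 at an unadjusted p under 0.05 in edgeR. Of all genes, 3.54% were, and the 7 other macrophage genes did not pass. Cd68 was at -2.48 (edgeR FDR = 0.465), and at -1.64 without control replicates 1 and 4 (edgeR FDR = 0.203). Adgre1 was at -0.78 (edgeR FDR = 0.853). In RNA of whole fat, more cells of a type and more RNA per cell cannot be told apart. The part of macrophage genes in the levels of the chemokines was not tested, but counts within a library were set against each other as ratios, with 16 exact permutation tests (4 ratios in 4 comparisons) adjusted together.

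There were 2.16, 3.47, 1.85, 2.18 and 2.08 counts of Ccl6 per count of Adgre1 in WD replicates 1 to 5, 6.48, 11.2, 10.5 and 2.20 in batch 1 controls and 5.19 to 13.1 in batch 2 controls. All WD libraries were below all batch 2 controls, and control replicate 4 had a ratio within the WD range. The mean log2 ratio differed by -1.49 in batch 1 (exact permutation p = 0.0159, adjusted 0.0508), -1.63 against all controls (exact permutation p = 0.00200, adjusted 0.0317) and -1.74 against batch 2 controls (exact permutation p = 0.00794, adjusted 0.0317). For Ccl9 per Adgre1, the means were 1.22 ± 0.619 in WD, 2.95 ± 1.11 in batch 1 controls and 2.31 ± 0.870 in batch 2 controls, with differences of -1.29 in batch 1 (exact permutation p = 0.0238, adjusted 0.0635), -1.11 against all controls (exact permutation p = 0.00749, adjusted 0.0317) and -0.96 against batch 2 controls (exact permutation p = 0.0397, adjusted 0.0907). The direction thus differed from that of the levels of both genes. Any gene that rises by less than Adgre1 has a lower ratio to it. In batch 1, the edgeR log2 fold changes were 1.94 for Adgre1, 0.66 for Ccl6 and 0.88 for Ccl9. The ratio tests therefore include the difference in Adgre1 itself and are not a result about the chemokines alone. Without control replicates 1 and 4, the batch 1 differences were -2.25 for Ccl6 and -1.76 for Ccl9, each with an exact permutation p = 0.0476, the smallest that 5 against 2 libraries allow. The size of these differences depended on the denominator, and so did the sign for Ccl9 against all and against batch 2 controls. The other denominators were added after the data were seen. With the sum of the 9 macrophage genes in place of Adgre1, the differences in batch 1 were -0.24 for Ccl6 (exact permutation p = 0.413) and -0.05 for Ccl9 (exact permutation p = 0.841), and that of Ccl9 against all controls was 0.18 (exact permutation p = 0.387). The ratio of Ccl8 to Adgre1 was 0.159 ± 0.106 in WD and 0.493 ± 0.470 in batch 1 controls (exact permutation p = 0.206, adjusted 0.300), a difference in mean log2 ratio that was -2.55 without control replicates 1 and 4 (exact permutation p = 0.0476).

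The ratio of Ccl9 to Ccl6 counts compares the neighbours directly. It was 0.418, 0.667, 0.429, 0.465 and 0.527 in WD, 0.409, 0.352, 0.350 and 0.692 in batch 1 controls and 0.373, 0.349, 0.213, 0.288 and 0.246 in batch 2 controls. Every WD library was above every batch 2 control, a difference of 0.78 in mean log2 ratio (exact permutation p = 0.00794, adjusted 0.0317). In batch 1, where control replicate 4 had the highest ratio of all, the difference was 0.19 (exact permutation p = 0.452, adjusted 0.517), and 0.49 without control replicates 1 and 4 (exact permutation p = 0.0952). Between controls of the 2 batches it was -0.59, lower in batch 2 (exact permutation p = 0.0635, adjusted 0.113). A difference by diet within batch 1 was not detectable in this ratio.

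**Figure D4:**
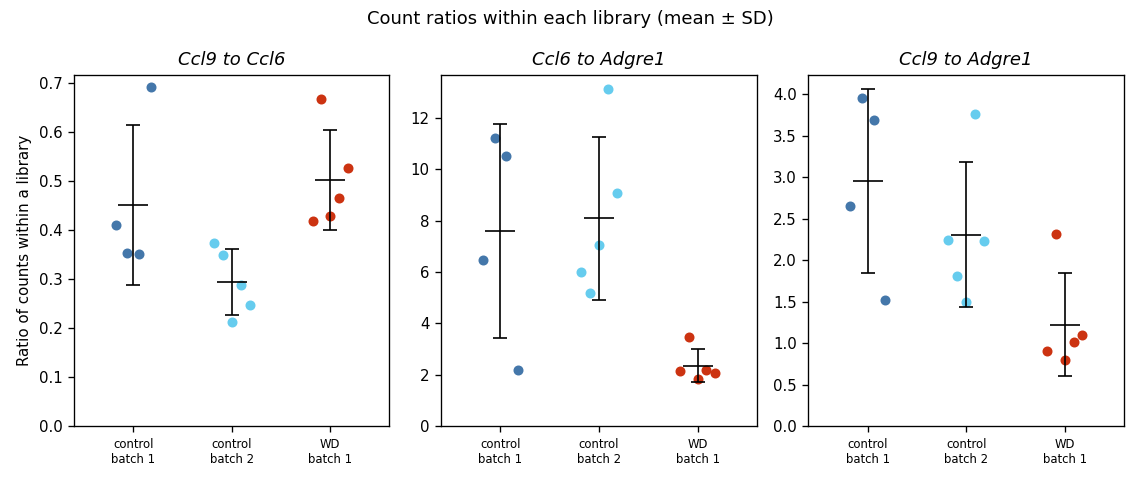
Ratios of counts within each library, 1 point per library with the mean ± SD, for Ccl9 to Ccl6, Ccl6 to Adgre1 and Ccl9 to Adgre1 in batch 1 controls (n = 4), batch 2 controls (n = 5) and WD (n = 5). WD libraries lie above all batch 2 controls in Ccl9 to Ccl6 and below all of them in Ccl6 to Adgre1, and control replicate 4 stands with WD in both.

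As a description of which genes varied alike, Pearson correlations of log2(CPM + 1) were taken over the 14 libraries among 12654 genes. The libraries share diet, batch and tissue make-up, so these values name likeness and no relation. Control replicate 1 was the lowest library for both Ccl6 (6.79) and Ccl9 (5.52) on this scale, and r is not given without it. For Ccl6, the most alike were Serpinb6a (r = 0.912), Ccl9 (0.902) and Cfp, which encodes properdin of the complement system (0.898). For Ccl9, they were S100a6, a calcium-binding protein (0.942), Hp, which encodes haptoglobin (0.924), and Ifi204, an interferon-inducible gene (0.920), with Ccl6 at place 9. For Ccl8, they were Stambpl1 (0.875), Cdr2 (0.857) and Col4a2, a collagen of basement membranes (0.846). Ccl8 had r = 0.673 with Ccl6 and 0.585 with Ccl9. Ccl2 had r = 0.483 with Ccl6 and Ccl11 r = 0.357 with it, whereas Ccl12 had r = -0.231.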

How the data were processed

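Epididymal fat RNA of 14 mice was measured by QuantSeq 3′-mRNA sequencing. The authors aligned single-end reads of 75 bases with Bowtie2 (mm10 per the submitters' processing notes), counted unique and multiple alignments per gene with bedtools, and deposited the raw read counts of 23282 genes. They also deposited log2 values of these libraries, made from CPM with TMM factors of edgeR after adding 1. Tool versions are not given in the sources used here. For the 10 members, these log2 values differed by at most 0.05 from log2(CPM + 1) computed here from the counts. The deposited counts were used throughout.

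Groups, batch and replicate number were taken from the sample labels. Tests used edgeR 4.0.16 (quasi-likelihood, TMM factors, filterByExpr), with Benjamini-Hochberg adjustment (FDR) over all genes tested and a threshold of 0.05, fitted on the whole table with only the libraries compared and without covariates. Intervals of fold changes are ± 1.96 SE. Single values were tested by exact two-sided permutation of mean log2(CPM + 1). The alternatives were DESeq2 1.42.0, limma-voom (limma 3.58.1), other size factors, no filter, a batch covariate, the replicate number as a block, a pseudocount of 0.1, each library left out in turn, and control replicates 1 and 4 left out. R 4.3.3, Python 3.11.15, numpy 2.4.6, pandas 2.3.3, scipy 1.17.1 and matplotlib 3.10.9 were used. The pipeline was tested on simulated data.

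The labels name mice of different groups and no further replicate level, so p-values measure the spread between these libraries. The members, lists and alternatives were chosen with earlier results of these data known. All 10 members are named. Of the other CC ligands and receptors, those with an unadjusted p under 0.05 in batch 1 are named or, where there were none, the 2 with the highest mean CPM. Of the marker lists, Adgre1, Cd68, Itgax, Csf1r, Adipoq and Pdgfra are named, and others as chosen by their p. Of the 3 most abundant members, the 3 most correlated genes are named. The counting intervals are exact at 95%. Positions come from GRCm38 annotation, and promoters come from RefSeq (GRCm38.p6). The plasma array, the blots and the brain measurements were not used here.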

Additional observations from a re-analysis of the deposited data

Results flagged for a closer look

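Groups of 4 or 5 libraries were examined for a single library far from the others (a gap to its nearest neighbour above Dixon's 95% critical share of the group's range), on the log2(CPM + 1) scale for levels. Of 39 groups, 4 were picked out, where chance gives about 1 in 20 (1.95 of 39) if values are independent and normally spread. These groups do not all meet this, since the Ccl3 flag rests on 1 count and both flags of control replicate 6 on the same Ccl8 counts. The 4 are therefore not read as an excess. Control replicate 1 had a Ccl3 level of 0.15, from 1 count, against 0 in the other batch 1 controls. Control replicate 6 had a Ccl8 level of 1.22, from 14 counts, against 3.99 to 4.55 in the other batch 2 controls, and its ratio of Ccl8 to Adgre1 counts was 0.0320 against 0.287 to 0.554 in the others. WD replicate 2 had a ratio of Ccl6 to Adgre1 counts of 3.47 against 1.85 to 2.18 in the other WD libraries. What set these libraries apart was not tested.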

How the results depend on the processing

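Counts of members at an unadjusted p under 0.05 in edgeR moved as follows. In batch 1 (0 members), limma-voom gave 1 (Ccl9), and leaving out 1 library gave 0 to 1 (Ccl3 without control replicate 1, Ccl6 without control replicate 2), likewise 0 to 1 in permutation tests. Against all controls (2), there were 5 with no filter (Ccl3, Ccl4, Ccl6, Ccl8 and Ccl9) and 4 with limma-voom (Ccl2, Ccl5, Ccl6 and Ccl9). There were 0 with batch as a covariate and 1 to 3 with a library left out (1 without control replicate 7 or WD replicate 1 or 2). By FDR there (0), it was 1 (Ccl9) without control replicates 1 and 4, and 0 to 1 with a library left out (1 without control replicate 4). The permutation tests there (2) gave 4 with no filter and 1 to 4 with a library left out (1 without WD replicate 1, 4 without control replicate 4). Between the batches of controls (0), it was 3 without control replicates 1 and 4, and 0 to 1 with a library left out. Against batch 2 controls (4), it was 7 with no filter and 2 to 5 with a library left out (2 without WD replicate 3). By FDR there (2), it was 1 with library totals alone and 1 to 2 with a library left out, and permutation tests (4) gave 2 to 4 (2 without WD replicate 1 or 3 or control replicate 7). Over the 9 controls, Ccl3 had 1 count and Ccl4 had 0, so a call of either gene rests on WD libraries. For most of these settings the share of all genes called is not given. No result about the members is therefore read from these counts. The cause of these moves was not tested.

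With the replicate block, 1 member (Ccl9) was higher at an unadjusted p under 0.05 in batch 1 (2.97% of genes) and 1 against all controls (3.40% of genes). The log2 fold change of Ccl7 in batch 1 turned to 3.40, and the block changed no FDR call of a member. The replicate numbers did not pair the libraries, since correlations of the deviations of same-numbered libraries were -0.02 to 0.08, 0 of 4 pairs were over 0.1, and 2 of 4 were best with their own number.

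Log2 fold changes that turned sign belonged to members with few counts or to small values. For Ccl7 it was -0.79 in batch 1 and became 2.53 with limma-voom, 1.53 without control replicates 1 and 4, and -1.24 to 2.08 with a library left out; against all controls (0.08) it was -0.84 with batch as a covariate and -0.24 to 1.96 with a library left out. For Ccl11 in batch 1 (-0.34) it was 0.38 with limma-voom, 0.76 without both control libraries and -0.80 to 1.32 with a library left out, and against all controls (-0.12) it was 0.28 without both and -0.54 to 0.47 with a library left out. Against batch 2 controls (0.12), Ccl11 was -0.58 with limma-voom and -0.30 to 0.57 with a library left out. For Ccl12 against all controls (1.03), the range was -0.07 to 1.41, lowest without WD replicate 4. Between the batches of controls, limma-voom gave 1.97 for Ccl5, 1.07 for Ccl11 and 0.41 for Ccl12, leaving out control replicates 1 and 4 gave 0.35 for Ccl5 and 0.63 for Ccl11, and leaving out 1 library gave -0.58 to 0.94 for Ccl5, -0.59 to 0.23 for Ccl6, -3.41 to 0.18 for Ccl7 and -0.93 to 1.21 for Ccl11.

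For ratios, the summed macrophage list in place of Adgre1 gave 0.18 for Ccl9 and 0.16 for Ccl8 against all controls, and 0.37 and 0.39 against batch 2 controls. Between the batches of controls, Cd68 in place of Adgre1 gave 0.97 for Ccl9 and 0.88 for Ccl8, and with a library left out the ratio to Adgre1 ran from -0.26 to 0.52 for Ccl6 and from -1.10 to 0.31 for Ccl8, while control replicates 1 and 4 left out together gave -0.51 for Ccl6. The permutation tests without both gave 3 members against all controls (Ccl2, Ccl7 and Ccl9, no longer Ccl6), and the share of all genes is not given for them. These denominators, the libraries left out of ratio and permutation tests, and permutation without the filter were chosen after seeing the data. Of 525 alternative values of fold changes, 477 kept their direction and their side of the threshold. Depth limits Ccl3 and Ccl4, with over 3 counts in 3 of 14 libraries each, and Ccl12, with over 3 counts in 8. Over all genes, the number with an FDR under 0.05 in batch 1 (0 in edgeR) was 114 with DESeq2, 0 with the block and 108 without control replicates 1 and 4. Against all controls (67), it was 225, 0 and 619, and 1 with batch as a covariate.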
